A study of Mus musculus with 8 samples.

Results

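The sarcoglycans, sarcospan and dystroglycan are the membrane-spanning part of the dystrophin-glycoprotein complex. They were taken here as Sgca, Sgcb, Sgcd, Sgce, Sspn and Dag1, through every array probe that the platform annotation gives to 1 of these genes and to no other. The rule found 6 probes for 5 of the 6 genes, among 31769 probes in all and 18976 that name 1 gene. Sgcb, the β-sarcoglycan gene, had 2 probes, and Sgcd, Sgce, Sspn and Dag1 had 1 each. Sgca, the α-sarcoglycan gene, had none of its own, because its 1 probe is also annotated to Hils1, and it has no value in what follows.

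The study asked what forced expression of HDAC4 does to this complex. C2C12, an established mouse myoblast line of C3H origin that fuses into myotubes, carried either a retrovirus encoding HDAC4 or a control (Neo) retrovirus, and was kept under selection for it. Both kinds of culture were then held in 2% horse serum for 4 days from 90% confluence, and 4 RNA samples of each were measured. The sources used here do not give the promoter that drives HDAC4, or say whether the samples of a group are separate cultures. A p-value then covers only how these samples differ among themselves, and that spread may be technical. Each array compared Cy5-labelled RNA of the cells with a Cy3-labelled murine reference RNA, for which a labelling protocol names liver. The value of a probe is the log2 ratio of cells over reference, centred on the median of its array. That direction is likely from the dyes and from the high values of muscle genes, and no label states it. No probe is annotated to Hdac4, so the groups were not checked against the gene the virus carried.

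Dystroglycan is made from Dag1 as a single precursor and cut into an outer subunit, which binds laminin in the basal lamina, and a membrane subunit, which binds dystrophin inside the cell. In striated muscle α-, β-, γ- and δ-sarcoglycan form a tight subcomplex beside dystroglycan, and sarcospan, a protein with several membrane spans, associates with it. ε-Sarcoglycan, the product of the imprinted gene Sgce, resembles α-sarcoglycan and is made in many tissues. Loss of α-, β-, γ- or δ-sarcoglycan causes limb-girdle muscular dystrophies. HDAC4 is a class IIa histone deacetylase that binds MEF2 transcription factors and holds their target genes down.

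The stretches before a start site of Sgcb and Sgcd are shown because these were the members with a probe whose 4 HDAC4 values all lay below its 4 Neo values. Each covers the 250 bases before a start in the RefSeq table of GRCm38.p6, read 5′ to 3′ on the minus strand, at chr5:73647738-73647987 for Sgcb and chr11:47379326-47379575 for Sgcd. Capitals mark matches on either strand to the E-box CANNTG, the GC box GGGCGG, the TATA box TATAAA and the M-CAT element CATTCC. The E-box is the general site of basic helix-loop-helix factors, the myogenic ones among them, and the M-CAT element is bound by TEAD factors.
Sgcb: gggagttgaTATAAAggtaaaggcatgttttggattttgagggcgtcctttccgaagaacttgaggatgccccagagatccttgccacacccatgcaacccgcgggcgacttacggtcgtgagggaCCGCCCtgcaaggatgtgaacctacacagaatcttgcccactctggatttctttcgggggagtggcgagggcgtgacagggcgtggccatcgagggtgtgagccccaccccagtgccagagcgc
Sgcd: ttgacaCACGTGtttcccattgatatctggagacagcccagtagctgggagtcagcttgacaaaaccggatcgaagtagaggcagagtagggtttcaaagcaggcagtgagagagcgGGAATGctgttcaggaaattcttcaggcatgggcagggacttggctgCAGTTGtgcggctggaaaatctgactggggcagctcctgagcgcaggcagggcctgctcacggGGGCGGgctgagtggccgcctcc

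The Sgcd window held 2 E-boxes, 1 GC box and 1 M-CAT element. The Sgcb window held 1 GC box, 1 match to the TATA box, 241 bases before the start, and no E-box. The capitals do not overlap one another in either window. Of all 32851 windows of this length in the table, 66.2% held an E-box, 32.7% a GC box, 12.4% a TATA box and 12.6% an M-CAT element. A match to the consensus of the MEF2 site, searched on both strands, was found in 2.92% of all windows and in 0 of the 7 windows of Sgca, Sgcb, Sgcd, Sspn and Dag1. The CArG box, the consensus of serum response factor, was found in 1.47% of all windows and in 0 of these 7. The table holds no window for Sgce. A match is a description of letters, and a missing match says only that the letters are not in these windows.

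All 6 member probes had a value on all 8 arrays, as had 50.4% of the probes that name 1 gene. All 48 values lay above 0, the median of their array. Of the probes with 8 values, 32.6% lay above 0 on all 8. Before centring the array medians lay between 0.0058 and 0.029, and all 48 deposited member values were above 0, the lowest at 0.17. If the ratio is, as is likely, that of cells over reference, each member thus gave more signal in the cells on every array, and less if it is the reverse. On the log2 scale the mean ratio, counted from the array median, was 1.73 ± 0.19 (SD, n = 8 arrays) for Sspn, which is 3.33-fold. It was 1.34 ± 0.27 (SD, n = 8) for Dag1, and 1.30 ± 0.23 and 1.27 ± 0.19 (SD, n = 8) for the Sgcb probes M200015991 and M300006521. It was 0.64 ± 0.26 (SD, n = 8) for Sgcd and 0.45 ± 0.19 (SD, n = 8) for Sgce, which is 1.36-fold. Each ratio depends on the reference's level of the same gene, so the order of these values is no order of abundance between genes.

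Values at an inferred floor of the reference signal, where 10 times the ratio is a whole number within 0.001 and at least 10, were rare among the members. Of the 48 member values 1 met that test, the Sspn value of HDAC4 array 2. All 8 values of Cav3, a related gene described further on, met it.

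**Figure D1:**
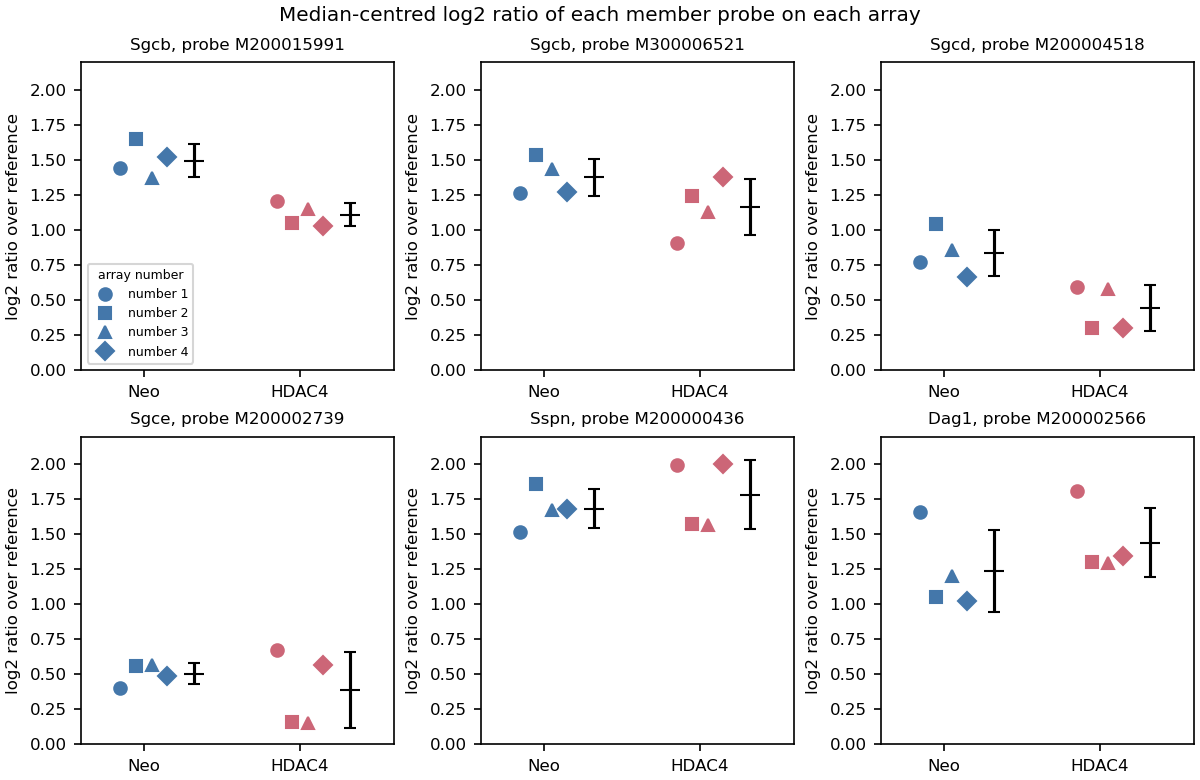
The y axis gives the median-centred log2 ratio of cells over reference for the 6 member probes, 1 panel each. Points are arrays, with a marker for each array number, and the black bar gives the group mean and SD (n = 4). The HDAC4 points lie below all Neo points for Sgcb probe M200015991 and for Sgcd, and the groups overlap in the other 4 panels.

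No member passed the test between HDAC4 and Neo cells. In limma with Benjamini-Hochberg adjustment over 16748 probes, 0 of the 6 probes had an adjusted p under 0.05, against 0.125% of all probes tested. These were 21 probes, 20 lower in HDAC4 (0.119%) and 1 higher (0.00597%). Of the members, 4 probes were lower and 2 higher, where 50.6% of all probes were lower, with a median difference of -0.16 (HDAC4 minus Neo, log2) against -0.0036 over all probes tested. Muscle differentiation genes had a median difference of -0.17 over 9 tested probes (6 lower, 3 higher), with 70 of 72 values at the reference floor. With floor values shifted, as described further on, it was 0.38. Fibroblast genes had a median of 0.63 over 4 probes (1 lower, 3 higher) and genes of dividing or undifferentiated cells 0.09 over 4. Immune cell genes had -0.18 over 3, and fat cell genes 0.11 over 1. The part of any of these in the members' values was not tested. At an unadjusted p under 0.05 in limma, 2 member probes were lower and 0 higher, where 4.4% of all probes were lower and 2.63% higher. By their mean differences the sarcoglycan probes were lower and the Sspn and Dag1 probes higher, and each is described in turn. The division is not clean. HDAC4 arrays 1 and 4 of Sgce lay above every Neo array, and Sspn turned to -0.025 without both arrays numbered 1.

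β-Sarcoglycan is a member on whose presence assembly of the muscle subcomplex is known to depend. The Sgcb probe M200015991 read 1.44, 1.65, 1.38 and 1.52 in Neo arrays 1 to 4 and 1.21, 1.05, 1.15 and 1.03 in HDAC4 arrays 1 to 4. The groups did not overlap, with a gap of 0.17 between the lowest Neo and the highest HDAC4 array. Over all probes with 8 values, 2.72% had every HDAC4 value below every Neo value. Mean levels were 1.497 ± 0.12 for Neo and 1.11 ± 0.084 for HDAC4 (SD, n = 4 each). The difference was -0.39 ± 0.12 (SE), a signal 1.31-fold lower, with an adjusted p of 0.475 in limma and an unadjusted p of 0.0106. The unadjusted 95% interval ran from 1.08-fold to 1.58-fold lower. The exact two-sided permutation p was 0.0286, the smallest that 4 against 4 arrays can give. Of all probes tested, 2.2% had a smaller p in limma.

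The other Sgcb probe, M300006521, gave a less clear picture. It read 1.26, 1.54, 1.44 and 1.27 in Neo arrays 1 to 4 and 0.91, 1.24, 1.13 and 1.38 in HDAC4 arrays 1 to 4. HDAC4 array 4 lay above 2 of the Neo arrays, and HDAC4 array 1 below every other array. The difference was -0.21 ± 0.14 (SE; adjusted p = 0.870 in limma), with an unadjusted 95% interval from -0.54 to 0.11 and an exact permutation p of 0.114. Both probes of the gene were thus lower in HDAC4 on average, and the order of the HDAC4 arrays differed between them: array 1 was the highest of the 4 for M200015991 and the lowest for M300006521. The mean over both probes differed by -0.30 ± 0.12 (SE; adjusted p = 0.607 in limma).

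δ-Sarcoglycan, which pairs with β-sarcoglycan in the core of the subcomplex, gave a similar size of difference. Sgcd read 0.77, 1.05, 0.86 and 0.66 in Neo arrays 1 to 4 and 0.60, 0.30, 0.58 and 0.30 in HDAC4 arrays 1 to 4. The groups did not overlap, but the gap between Neo array 4 and HDAC4 array 1 was 0.069. The means were 0.84 ± 0.16 and 0.44 ± 0.16 (SD, n = 4 each). Sgcd differed by -0.39 ± 0.14 (SE; adjusted p = 0.590 in limma), a signal 1.31-fold lower with an unadjusted 95% interval from 1.05-fold to 1.63-fold lower. The exact permutation p was 0.0286, and 3.47% of all probes tested had a smaller p in limma.

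ε-Sarcoglycan had the tightest Neo values of the 6 probes and widely spread HDAC4 values. Sgce read 0.40, 0.56, 0.56 and 0.49 in Neo arrays 1 to 4 and 0.67, 0.16, 0.15 and 0.57 in HDAC4 arrays 1 to 4. HDAC4 arrays 1 and 4 were above every Neo array, and HDAC4 arrays 2 and 3 below every Neo array. The difference of the means, -0.11 ± 0.16 (SE; adjusted p = 0.942 in limma), therefore describes no single array well. Its unadjusted 95% interval ran from -0.46 to 0.23.

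Sarcospan showed the same split among the HDAC4 arrays. Sspn read 1.51, 1.86, 1.68 and 1.68 in Neo arrays 1 to 4 and 2.00, 1.57, 1.57 and 2.00 in HDAC4 arrays 1 to 4. HDAC4 arrays 1 and 4 were again above every Neo array, and arrays 2 and 3 lay within the Neo range. The difference was 0.10 ± 0.16 (SE; adjusted p = 0.947 in limma), with an unadjusted 95% interval from -0.25 to 0.45. Without both arrays numbered 1 it was -0.025 ± 0.15 (SE; adjusted p = 0.950), so its sign rests on those arrays.

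Dystroglycan was the member with the largest difference on the higher side, and it varied most with the array number. Dag1 read 1.66, 1.05, 1.20 and 1.03 in Neo arrays 1 to 4 and 1.81, 1.31, 1.30 and 1.35 in HDAC4 arrays 1 to 4. The arrays numbered 1 were the highest of their group in both groups, and Neo array 1 lay above HDAC4 arrays 2 to 4. The difference was 0.20 ± 0.19 (SE; adjusted p = 0.897 in limma), a signal 1.15-fold higher with an unadjusted 95% interval from 0.861-fold to 1.54-fold. The difference was 0.08 without HDAC4 array 1 and 0.35 without Neo array 1.

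In both groups the array numbered 1 departed from the other 3, so each member was also compared within the numbers. With the arrays numbered 1 as a batch term in limma, 21.4% of all probes differed between these arrays and the others at an adjusted p under 0.05. Dag1 was the 1 member probe among them, higher by 0.53 ± 0.11 (SE; adjusted p = 0.0138) on the arrays numbered 1. For the other 5 probes the adjusted p of this batch difference was between 0.199 and 0.915. Their part in the comparison of HDAC4 with Neo can be seen in the differences within same-numbered pairs.

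Within same-numbered pairs, Sgcb probe M200015991 was lower in HDAC4 in 4 of 4, by 0.23, 0.60, 0.22 and 0.49 for numbers 1 to 4. Sgcd was lower in 4 of 4 as well, by 0.17, 0.75, 0.28 and 0.36. Pair 2 gave the largest fall of the 4 for both probes. Because the groups did not overlap for either probe, any pairing of the arrays gives 4 of 4, and this count adds nothing to that separation. Over all probes with 8 values, 11% were lower in HDAC4 in all 4 pairs, so this pattern alone is common. Sgcb probe M300006521 was lower in 3 of 4 pairs, and in pair 4 it differed by 0.11 on the higher side. Dag1 was higher in HDAC4 in 4 of 4 pairs, by 0.14, 0.25, 0.09 and 0.32, as were 10.2% of all probes with 8 values. Sgce and Sspn were higher in pairs 1 and 4 and lower in pairs 2 and 3. For numbers 2 to 4 the correlations between arrays do not show that a shared number marks a pair.

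**Figure D2:**
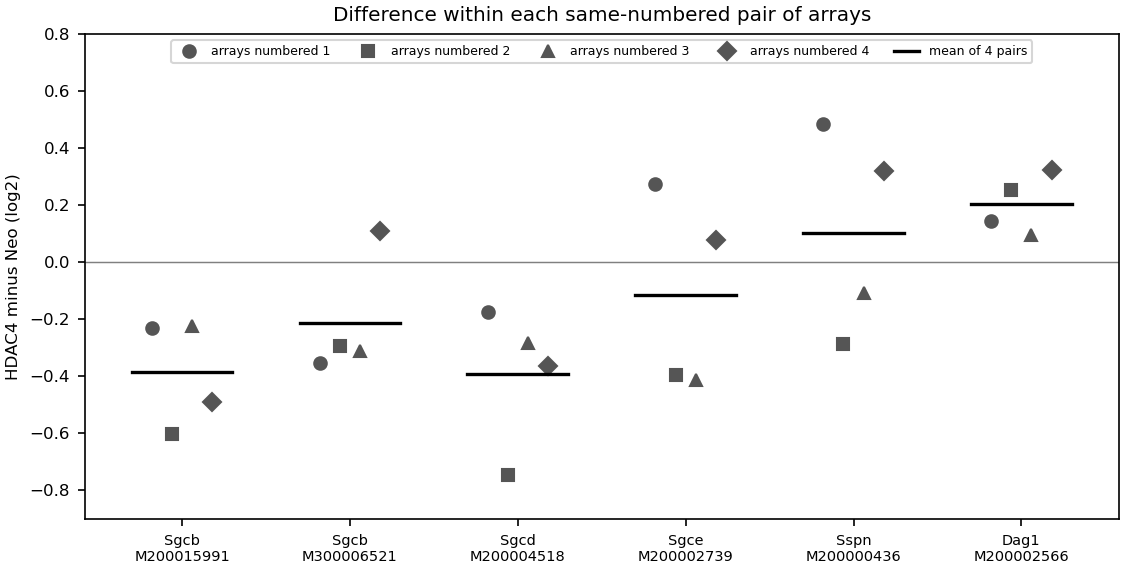
The y axis gives HDAC4 minus Neo (log2) within each same-numbered pair of arrays, for the 6 member probes along the x axis. Markers stand for the array number and the line for the mean of the 4 pairs. Sgcb probe M200015991 and Sgcd lie below 0 in 4 of 4 pairs, Dag1 lies above 0 in 4 of 4, and Sgce and Sspn fall on both sides.

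No member passed in limma with these numbers in the fit either. With the replicate number as a block, the adjusted p was 0.324 for Sgcb probe M200015991, 0.352 for Sgcd and 0.539 for Dag1, in a fit where 0.0537% of all probes passed. With the arrays numbered 1 as a batch the values for Sgcb probe M200015991, Sgcd and Dag1 were 0.164, 0.240 and 0.397, in a fit where 0.645% of all probes passed. Without both arrays numbered 1, which leaves 3 arrays a group, 2.26% of all probes passed and 0 of the 6 members. In each of these 3 fits 2 member probes, Sgcb probe M200015991 and Sgcd, had an unadjusted p under 0.05. Among all probes tested, both directions counted, 1934 of 16748 did so with the block and 2270 of 16748 with the batch. Without the arrays numbered 1 it was 2803 of 15397. Without the arrays numbered 1 the difference was -0.44 ± 0.11 (SE; adjusted p = 0.1003) for Sgcb probe M200015991, -0.46 ± 0.14 (SE; adjusted p = 0.148) for Sgcd and 0.22 ± 0.098 (SE; adjusted p = 0.289) for Dag1. On those 6 arrays the 3 HDAC4 values of Dag1 lay above the 3 Neo values, as for 12.6% of all probes with 6 values. The pair numbered 1 has 1 array a group and allows no test.

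**Figure D3:**
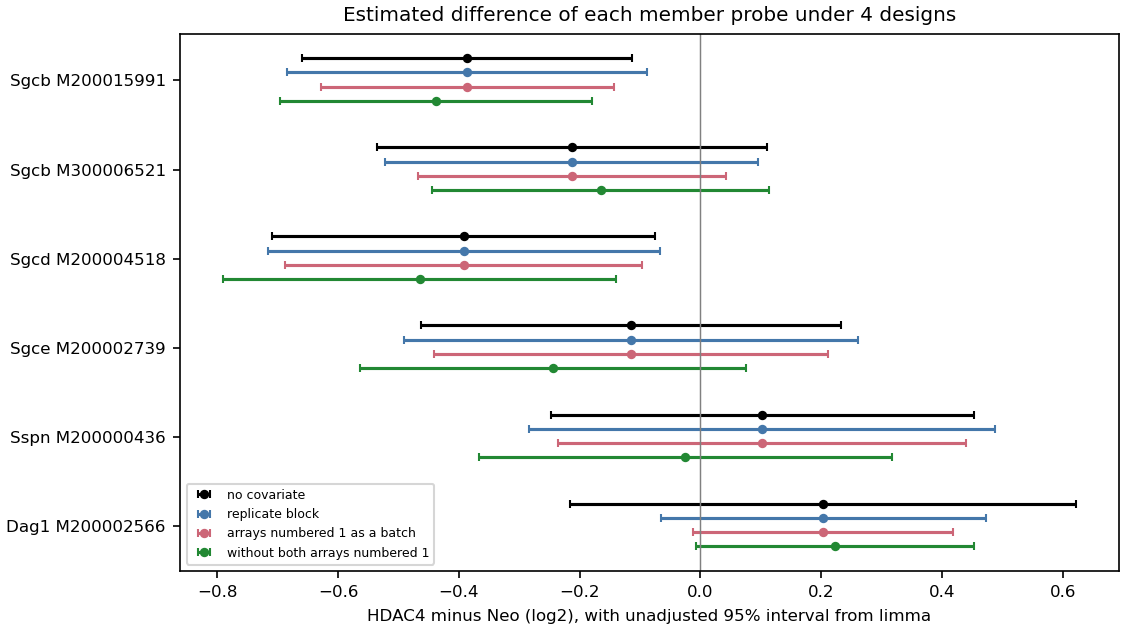
The x axis gives HDAC4 minus Neo (log2) with its unadjusted 95% interval from limma, for the 6 member probes in rows and 4 designs in colours. The intervals of Sgcb probe M200015991 and of Sgcd lie below 0 under all 4 designs, while no adjusted p is under 0.05, and those of the other 4 probes include 0.

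Gaps between 2 probes on the same array take out whatever shifts both alike. Sgcb probe M200015991 lay above Sgcd by 0.66 ± 0.14 in Neo and 0.67 ± 0.086 in HDAC4 (SD, n = 4 each), and the 8 gaps lay between 0.52 and 0.86. This gap had the smallest SD over the 8 arrays, 0.11, of the 15 pairs of member probes. The gap between the probes of Sgcb itself was less steady, with 0.12 ± 0.13 in Neo and -0.05 ± 0.28 in HDAC4 (SD, n = 4 each). The Sgcb probe M200015991 and Sgcd thus followed each other over the arrays more closely than the Sgcb probes did.

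Sgce and Sspn made up the other close pair. Sgce minus Sspn was -1.11, -1.30, -1.11 and -1.19 in Neo arrays 1 to 4 and -1.32, -1.41, -1.42 and -1.43 in HDAC4 arrays 1 to 4. The HDAC4 gaps all lay below the Neo gaps, with means of -1.40 ± 0.050 and -1.18 ± 0.090 (SD, n = 4 each), although neither gene alone separated the groups. Of the 15 pairs, the gap of 1 other, Sgcb probe M200015991 minus Sspn, also did not overlap between the groups. Over all pairs of probes with 8 values, 4.92% of gaps did not overlap, and the 15 member pairs share their 6 probes and are not independent. Against dystroglycan, Sgcd minus Dag1 was -0.40 ± 0.37 in Neo and -0.997 ± 0.20 in HDAC4 (SD, n = 4 each). The Sgcd to Dag1 gap was wider in HDAC4 in 4 of 4 same-numbered pairs, while Neo array 1, at -0.89, lay within the HDAC4 values. These gaps were chosen after their values were seen and have no test.

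**Figure D4:**
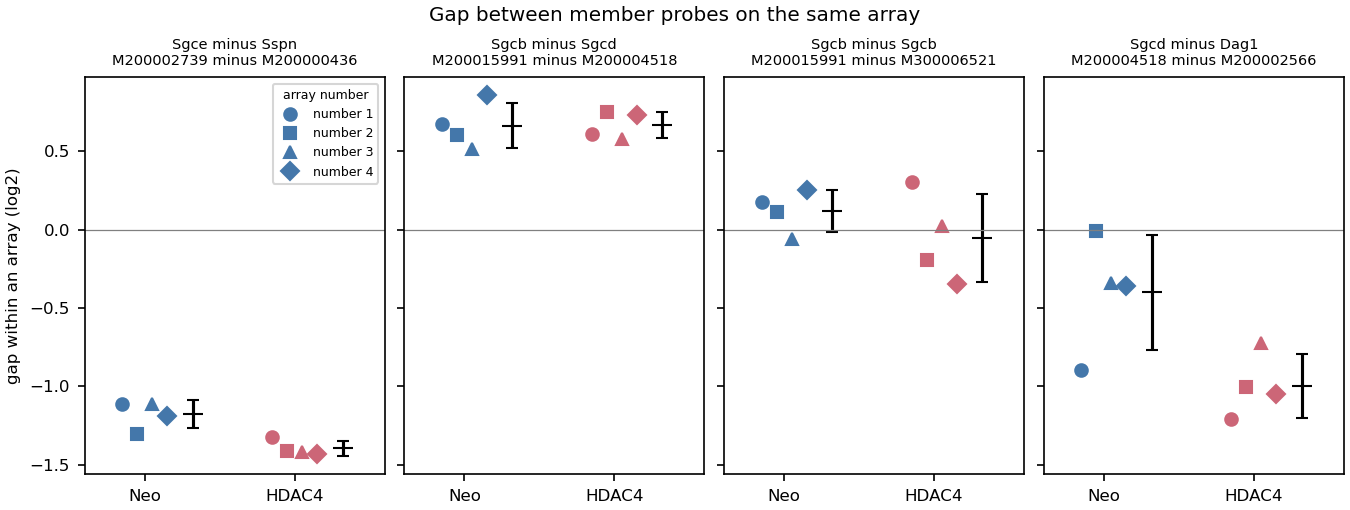
The y axis gives the gap between 2 member probes on the same array (log2), for 4 of the 15 pairs, with markers for the array number and bars for the group mean and SD (n = 4). Sgce minus Sspn is lower on all 4 HDAC4 arrays than on any Neo array, Sgcb minus Sgcd has the same level in both groups, and the other 2 gaps overlap.

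The named genes nearest to each member over the 8 arrays were found by the root mean square difference between the deviations of each probe from its own mean. They came from 9570 or 9571 candidate probes, which share the arrays and their normalization with the members. Sgcb probe M200015991 had Pcdh18, Rcor3 and Paip2 nearest, at 0.081, 0.091 and 0.094 log2 units. Sgcd itself lay at 0.10 from this Sgcb probe and M300006521 at 0.21, against a median of 0.32 over all candidates. Sgcd had Ube2l6, Zcrb1 and Rusc2 nearest, at 0.065, 0.096 and 0.10. Sgce had Cilk1, Serbp1 and Rnf138 nearest, at 0.058, 0.075 and 0.078, and Sspn had Bmi1, Mpp1 and Stt3a, at 0.080, 0.086 and 0.090. Sspn lay at 0.13 from Sgce. For Dag1 the nearest were Dpp9, Mettl6 and Ttc27, at 0.051, 0.052 and 0.055, and no other member lay nearer to it than 0.29.

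Other genes of the complex were read from the same limma fit. Of 13 other dystrophin-associated genes, 7 were tested through 10 probes, with 7 probes lower, 3 higher, 0 past the threshold (at an unadjusted p under 0.05, 1 lower and 0 higher) and a median of -0.09. Cav3, the muscle caveolin, which binds dystroglycan, had the smallest p of these probes, with 7.35 ± 0.33 in Neo and 6.25 ± 0.30 in HDAC4 (SD, n = 4 each) and a difference of -1.10 ± 0.21 (SE; adjusted p = 0.122 in limma). In limma Cav3 passed with the arrays numbered 1 as a batch (adjusted p = 0.0103), without both of those arrays (0.0128) and without HDAC4 array 1 (0.0371). It did not pass with the replicate block (0.0606). Probes at the reference floor on all 8 arrays were lower on the HDAC4 arrays, where the median deviation of 206 such probes lay between -0.56 and -0.05, than on the Neo arrays, where it lay between 0.04 and 0.46. With floor values shifted by that deviation, Cav3 differed by -0.55 (adjusted p = 0.851 in limma). Sntb1, the β1-syntrophin gene, also at the floor on 8 arrays, differed by -0.49 ± 0.24 (SE; adjusted p = 0.757 in limma), which turned to 0.06 ± 0.25 (SE; adjusted p = 0.983) with the shift. The shift left 6 probes of the list lower and 4 higher, with a median of -0.04. Cav3 and Sntb1 are themselves among the 206 probes that set the shift, which takes out whatever such probes share. Whether that shared deviation is technical was not tested.

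The enzymes that build the laminin-binding sugar chains of dystroglycan had more probes higher than lower. Of 21 symbols listed, older ones included, 9 genes were tested through 10 probes, with 2 probes lower, 8 higher, 0 past the threshold in limma (at an unadjusted p under 0.05, 0 lower and 1 higher) and a median of 0.12. The nearest to a call were probe M200003524 of Pomk, the protein O-mannose kinase, at 0.29 ± 0.13 (SE; adjusted p = 0.710 in limma), and Pomt1, an O-mannosyltransferase, at 0.29 ± 0.14 (SE; adjusted p = 0.769). The other Pomk probe, M300010823, differed by 0.12 ± 0.13 (SE; adjusted p = 0.927 in limma). The matrix ligands of dystroglycan and the chains associated with them, 8 genes tested through 15 probes, had 12 probes lower, 3 higher, 0 past the threshold in limma (at an unadjusted p under 0.05, 3 lower and 0 higher) and a median of -0.18. Of these 15 probes 6 were mostly at the reference floor, and 2 of the 3 with an unadjusted p under 0.05, Lama4 and Lama2 probe M300001880, had no value off it. With floor values shifted, 8 probes were lower and 7 higher, with a median of -0.03, 0 past the threshold in limma and 1 lower at an unadjusted p under 0.05. Lama4, a laminin α-chain, differed by -0.57 ± 0.19 (SE; adjusted p = 0.567 in limma) over 3 arrays a group, and by -0.03 ± 0.16 (SE; adjusted p = 0.983) with the shift. Agrn, the agrin gene, had 0 of 8 values at the floor on probe M300013436 and differed by -0.63 ± 0.27 (SE; adjusted p = 0.705 in limma). Its other probe, M300013424, also with 0 values at the floor, differed by -0.20 ± 0.38 (SE; adjusted p = 0.960 in limma). Without both arrays numbered 1 probe M300013436 passed the threshold, at -0.80 ± 0.11 (SE; adjusted p = 0.0177 in limma), as did 2.26% of all probes in that fit. This probe did not pass with the arrays numbered 1 as a batch (0.106) or with the replicate block (0.240). The lists hold several probes of 1 gene, which share their transcript.

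**Figure D5:**
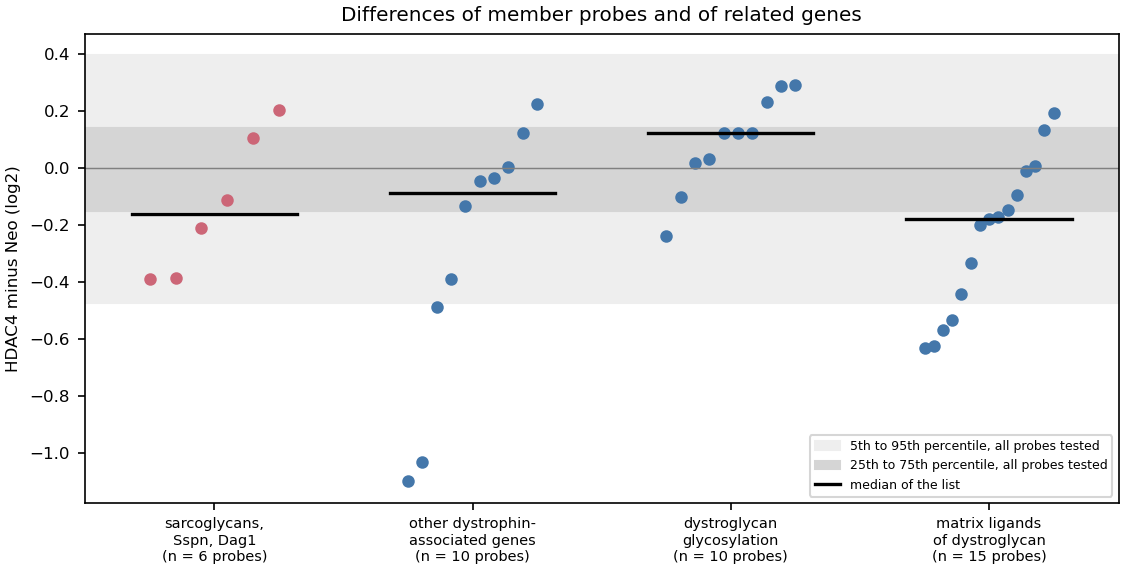
The y axis gives HDAC4 minus Neo (log2) for each tested probe of the members (red) and of the 3 related lists (blue), sorted within a list along the x axis. Grey bands give percentiles over all 16748 probes tested and lines give list medians of -0.16, -0.09, 0.12 and -0.18, which with floor values shifted are -0.16, -0.04, 0.16 and -0.03. All 6 member probes lie within the band from the 5th to the 95th percentile, and Cav3 at -1.10 is the lowest point.

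Facts of the whole series that touch these values are few. The Neo arrays had between 19248 and 22193 probes with a value and the HDAC4 arrays between 17014 and 18521, and the number of arrays limits the precision. Muscle differentiation genes, 10 probes of 8 genes including Ckm and Myog, had array medians from 8.15 to 8.57 in Neo and from 8.10 to 8.33 in HDAC4, with 0 of 9 tested probes past the threshold in limma and 1, lower, at an unadjusted p under 0.05. Of these 9 probes 6 were lower and 3 higher, with a median difference of -0.17, and 70 of their 72 values were at the reference floor. The 1 probe with an unadjusted p under 0.05 had no value off that floor. With floor values shifted 2 were lower and 7 higher, with a median of 0.38. In limma 0 then passed the threshold, and at an unadjusted p under 0.05 there were 0 lower and 3 higher. Most of these probes help set the shift, so the shifted values only set them against other probes at the floor. Liver genes, 12 probes of 8 genes, had a value for 0 to 3 probes an array. Genes of dividing or undifferentiated cells (5 probes) had array medians from -4.17 to -3.31 in Neo and -3.87 to -2.83 in HDAC4, fibroblast genes (4 probes, 1 lower and 3 higher) from -3.33 to -2.07 and from -2.49 to 0.23, fat cell genes (8 probes, of which 4 had no value) from -0.62 to -0.10 and from -0.95 to 0.36, and immune cell genes (5 probes) from -4.02 to -2.95 and from -4.52 to -3.48. In those 4 lists 5 of 12 tested probes were lower and 7 higher, 0 passed in limma, and 1 lower and 1 higher probe had an unadjusted p under 0.05, and the part of other cells in the members' values was not tested. The samples are bulk RNA, so fewer differentiated cells and less RNA per cell cannot be told apart.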

How the data were processed

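The deposited table holds a log2 ratio for each probe on each array. How the authors corrected background, normalized and filtered, and why values are missing, was not given in the sources used here. Within 0.01, 98.8% of the deposited log2 values are the logarithm of a ratio held to 3 decimals. Arrays were centred on their median. Probes with at least 3 values in each group were tested (16748), each as its own feature, because probes of a gene lie at different levels and miss values on different arrays. The groups were compared in R 4.3.3 with limma 3.58.1 (lmFit, eBayes), adjusted by Benjamini-Hochberg at 0.05. The fit was tested on simulated data.

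The members and lists were chosen with earlier results of these data known. The rule for names took every member probe, the 2 probes with the smallest p of each related list, and the 3 nearest named genes of each member's probe with the most values, the first by identifier where tied. Platform annotation names were updated through gene identifiers to RefSeq symbols (GRCm38.p6), which also gave the promoters: 12389 probes have no gene and 404 have several.

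After subtraction of the group means, same-numbered arrays correlated across 14746 probes at 0.53, 0.31, 0.21 and 0.11 for numbers 1 to 4. All lay above the limit of 0.1 set for counting the numbers as pairs. Arrays 2 to 4 with different numbers correlated at 0.07 to 0.27 as well, and HDAC4 arrays 3 and 4 correlated best with Neo array 2. The limit thus cannot show that numbers 2 to 4 mark pairs. The alternatives were other centring, filters, the block, the batch, floor values, gene means and leaving out arrays.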

Additional observations from a re-analysis of the deposited data

Results flagged for a closer look

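Of 24 groups of 4 values checked for 1 array far from the other 3, 2 held one, where chance gives about 1 in 20. The Dag1 value of HDAC4 array 1, 1.81, lay above the other HDAC4 arrays by 0.898 of the range of the group. Neo array 1 was also the highest Dag1 value of its group. The Pomk probe M200003524 had 1.46 on HDAC4 array 1, above the other 3 by 0.877 of the range. Neo array 1 had the lowest Pomk value of its group, so the arrays numbered 1 did not deviate to the same side there.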

How the results depend on the processing

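Of 120 alternative values of the 6 member probes, 117 kept their direction and their side of the threshold. Many of these could not change a difference, because every member probe had a value on every array. The filters, the block, the batch and the permutation test left each difference the same and could move only its p-value. So did the floor settings except for Sspn, and the gene means except for Sgcb. The unadjusted exact permutation test put Sgcb probe M200015991 (difference -0.39) and Sgcd (difference -0.39) under 0.05, at 0.0286 each. Sspn reversed without both arrays numbered 1, to -0.025. The adjusted p of member probes ranged from 0.1003 to 0.9998 over the limma alternatives. With 1 array left out, the differences ran from -0.43 to -0.34 for Sgcb probe M200015991, -0.28 to -0.13 for M300006521, -0.45 to -0.32 for Sgcd, -0.21 to -0.04 for Sgce, 0.03 to 0.17 for Sspn and 0.08 to 0.35 for Dag1. The replicate block changed no member's call. It took the count of probes past the threshold from 21 to 9, of which 7 were among the 21. That count was 108 with the arrays numbered 1 as a batch, 348 without them, 1 with floor values missing and 4 with floor values shifted. It ran from 0 to 88 with 1 array left out: 74 without Neo array 1, 88 without HDAC4 array 1, 0 in limma without Neo array 2, 3 or 4 (915, 957 and 936 at an unadjusted p under 0.05), and 3, 9 and 2 without HDAC4 array 2, 3 and 4. The cause was not tested. The medians of the 3 related lists moved by less than 1 SD between replicates in 18 of 18 alternatives, of which the shifted and the missing floor values were chosen after seeing the data. Without both arrays numbered 1, Agrn probe M300013436 passed among the matrix ligands and Cav3 among the other dystrophin-associated genes.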

Other observations

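The probe M200003666 is annotated to both Sgca and Hils1 and so belongs to neither gene here. Its log2 ratio was 2.98, 6.06, 6.22 and 5.56 in Neo arrays 1 to 4 and 5.39, 5.52, 5.87 and 5.83 in HDAC4 arrays 1 to 4. Neo array 1 lay far below the other 7 arrays, which span 5.39 to 6.22. The groups overlapped, and the difference was 0.45 ± 0.62 (SE; adjusted p = 0.943 in limma). Of its 8 values, 5 were at the inferred floor of the reference signal. The assignment of this signal to either gene was not tested.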
